A study of Mus musculus with 9 samples.

Results

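Aldehyde dehydrogenases oxidise aldehydes to carboxylic acids with NAD+ or NADP+ as the acceptor, and liver carries many members of the family. The 9 genes described here were chosen by name: Aldh2, Aldh3a2, Aldh1b1, Aldh1l1, Aldh4a1, Aldh6a1, Aldh7a1, Aldh8a1 and Aldh9a1, out of 55401 gene entries in the table. All 9 had enough counts to be tested, as did 12660 genes in all. Left liver lobes from males were profiled with the QuantSeq kit, which reads the 3' ends of polyadenylated transcripts, in 3 groups of 3 libraries. STAM + Atglistatin mice, which model diabetes together with fatty liver, were injected under the skin with 200 µg of streptozotocin, a toxin of insulin-producing cells, at 2 days of age. From 4 weeks of age they ate a high-fat diet for 4 weeks with Atglistatin in it, a blocker of the lipase ATGL that Pnpla2 encodes. STAM mice had the same injection and the high-fat diet without Atglistatin. Chow mice received neither streptozotocin nor Atglistatin and ate chow. Neither their age nor any strain is stated, and streptozotocin and the high-fat diet always went together, so that their parts cannot be told apart.

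The treatment labels of the chow and STAM libraries name streptozotocin the other way round from their titles and from the study's design, and the groups follow the titles. Each library held 7409090 to 9911855 counts. Values are CPM, counts scaled to 1e6 per library, with TMM-scaled library sizes, given as mean ± SD of n = 3 libraries. Differences are given on the log2 scale ± SE, first-named group over second, and were tested with edgeR's quasi-likelihood method, and a gene passed at an adjusted p (Benjamini-Hochberg over all tested genes) under 0.05. The labels do not say outright that each library is a separate mouse, so the p-values measure the spread between these libraries. The summed level of 8 hepatocyte markers, all above 0, was 71534 to 71969 CPM in STAM + Atglistatin. It was 48618 to 56399 CPM in STAM and 91434 to 103126 CPM in chow. In STAM against chow 4 of the 8 fell, albumin (Alb), Ttr, Apoa1 and Fgb, where 1.99% of all tested genes fell. Serpina1a (-0.42), Cps1 (-0.26), Hnf4a (-0.26) and Tat (-1.18) did not pass there. Of the 8, 5 fell in STAM + Atglistatin against chow, where 1.97% of all tested genes fell. In STAM + Atglistatin against STAM 1 rose, Alb, where 1.04% of all tested genes rose. The median log2 fold change over the 8 was 0.00 there. Alb averaged 45727 ± 673 CPM in STAM + Atglistatin, 29475 ± 2539 CPM in STAM and 60367 ± 3647 CPM in chow, and so made up most of each sum. In bulk tissue, fewer cells of a type and less RNA of these genes per cell cannot be told apart. Mitochondrially encoded transcripts took 8.61 to 9.69% of counts in STAM + Atglistatin, 11 to 11.5% in STAM and 7.28 to 8.74% in chow. The part of these shifts in the results was not tested. Pnpla2, the gene of the inhibited lipase, had a log2 fold change of 0.00 ± 0.18 in STAM + Atglistatin against STAM.

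The members serve different routes. Aldh2 makes the mitochondrial enzyme that clears acetaldehyde from ethanol and aldehydes from lipid peroxidation, and Aldh1b1 makes its mitochondrial relative. Aldh3a2 makes fatty aldehyde dehydrogenase of the endoplasmic reticulum and peroxisomes, which oxidises long-chain aldehydes from fatty alcohols, ether lipids and sphingolipids, and whose loss in humans causes Sjögren-Larsson syndrome. It is a known target of PPARa, the nuclear receptor that senses fatty acids. Aldh4a1, Aldh6a1, Aldh7a1 and Aldh8a1 act in the breakdown of proline, valine, lysine and tryptophan. Aldh9a1 acts in carnitine synthesis, and Aldh1l1 makes the cytosolic formyltetrahydrofolate dehydrogenase of folate metabolism.

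Promoter windows of 300 bases, 250 before and 50 from the annotated start on, were used for 7 of the 9 genes, from RefSeq (GRCm38.p6). They are shown for the 2 members that changed, Aldh3a2 and Aldh1l1, and for Aldh8a1, whose means were 291, 293 and 293 CPM in STAM + Atglistatin, STAM and chow. Each is written 5′ to 3′ on the gene's strand, and capitals mark matches to the motifs searched on both strands.
Aldh3a2, chr11:61267137-61267436, minus strand: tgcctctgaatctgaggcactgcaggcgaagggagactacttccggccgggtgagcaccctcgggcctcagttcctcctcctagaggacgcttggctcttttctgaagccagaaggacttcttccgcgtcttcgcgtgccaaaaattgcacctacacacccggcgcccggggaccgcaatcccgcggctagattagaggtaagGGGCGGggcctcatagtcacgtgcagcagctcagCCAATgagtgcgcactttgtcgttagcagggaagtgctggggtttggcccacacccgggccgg
Aldh1l1, chr6:90550543-90550842, plus strand: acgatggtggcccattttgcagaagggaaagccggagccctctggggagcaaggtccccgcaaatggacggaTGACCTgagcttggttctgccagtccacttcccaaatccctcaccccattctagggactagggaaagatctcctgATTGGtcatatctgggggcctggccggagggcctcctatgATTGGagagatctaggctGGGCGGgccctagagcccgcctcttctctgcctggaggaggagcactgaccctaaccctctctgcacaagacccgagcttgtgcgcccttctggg
Aldh8a1, chr10:21377050-21377349, plus strand: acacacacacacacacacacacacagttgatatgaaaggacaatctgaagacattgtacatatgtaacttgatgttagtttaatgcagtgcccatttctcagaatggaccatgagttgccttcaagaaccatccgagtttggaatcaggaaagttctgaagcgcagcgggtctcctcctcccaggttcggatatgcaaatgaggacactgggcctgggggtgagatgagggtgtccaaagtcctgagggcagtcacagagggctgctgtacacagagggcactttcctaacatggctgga
The searched letters were AGGTCA (a nuclear receptor half-site), the direct repeat of that half-site with 1 base between (bound by PPARa with RXR and by HNF4A, and counted as a half-site too), GGGCGG (GC box), CCAAT and TATAAA. The Aldh3a2 window holds a GC box that starts 47 bases before the annotated start and a CCAAT box that starts 13 bases before it. The Aldh1l1 window holds 1 half-site 178 bases before the start and 2 CCAAT boxes, all on the other strand, and a GC box 45 bases before the start on the gene's strand. The Aldh3a2 and Aldh1l1 windows both lie wholly inside the genes' longer GENCODE spans. None of these letters is in the Aldh8a1 window. Over the 8 windows of the 7 genes, CCAAT was in 7, the GC box in 3, the half-site in 2 and the TATA box and the direct repeat in 0. Over all 32851 promoter windows of this length the shares were 37.4% for CCAAT, 35.7% for the GC box, 16.3% for the half-site, 13.6% for the TATA box and 0.0396% for the direct repeat. A match of letters is a description and not a binding site.

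STAM against chow asked how the liver of the diabetic, high-fat-fed mouse differed from that of the control. Of the 9 genes, Aldh3a2 rose, Aldh1l1 fell and 7 did not pass. Of all tested genes, 3.94% passed in this comparison, 1.95% higher and 1.99% lower. The median log2 fold change was 0.06 over the 9 genes and 0.00 over all tested genes, and the members ranged between -0.78 for Aldh1l1 and 1.49 for Aldh3a2.

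Aldh3a2 (chromosome 11, 61223417 to 61267464, minus strand, GRCm38) stood at 601, 516 and 581 CPM in the STAM libraries, against 186, 228 and 191 CPM in the chow libraries. Every STAM library was above every chow library. The means were 566 ± 44.2 CPM in STAM and 202 ± 22.7 CPM in chow, and the log2 fold change was 1.49 ± 0.13, or 2.81-fold (95% interval 2.34 to 3.37; edgeR adjusted p = 7.26e-07). It passed in all 15 alternative analyses, with values of 1.43 to 1.59. It ranked 15 by p among all tested genes.

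Aldh1l1 (chromosome 6, 90486427 to 90600203, plus strand) was at 233, 221 and 294 CPM in the STAM libraries, against 376, 488 and 423 CPM in the chow libraries. Here the highest STAM library was below the lowest chow library. The means were 249 ± 39.1 CPM in STAM and 429 ± 56.2 CPM in chow, and the gene fell by 0.78 ± 0.14 on the log2 scale (95% interval -1.08 to -0.48; edgeR adjusted p = 0.00262). The call held in all 15 alternatives, with values between -0.92 and -0.68. Of the members, 3 had values that did not overlap between STAM and chow, 2 higher and 1 lower, against 20.7% of tested genes, 10.6% higher and 10.2% lower.

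**Figure D1:**
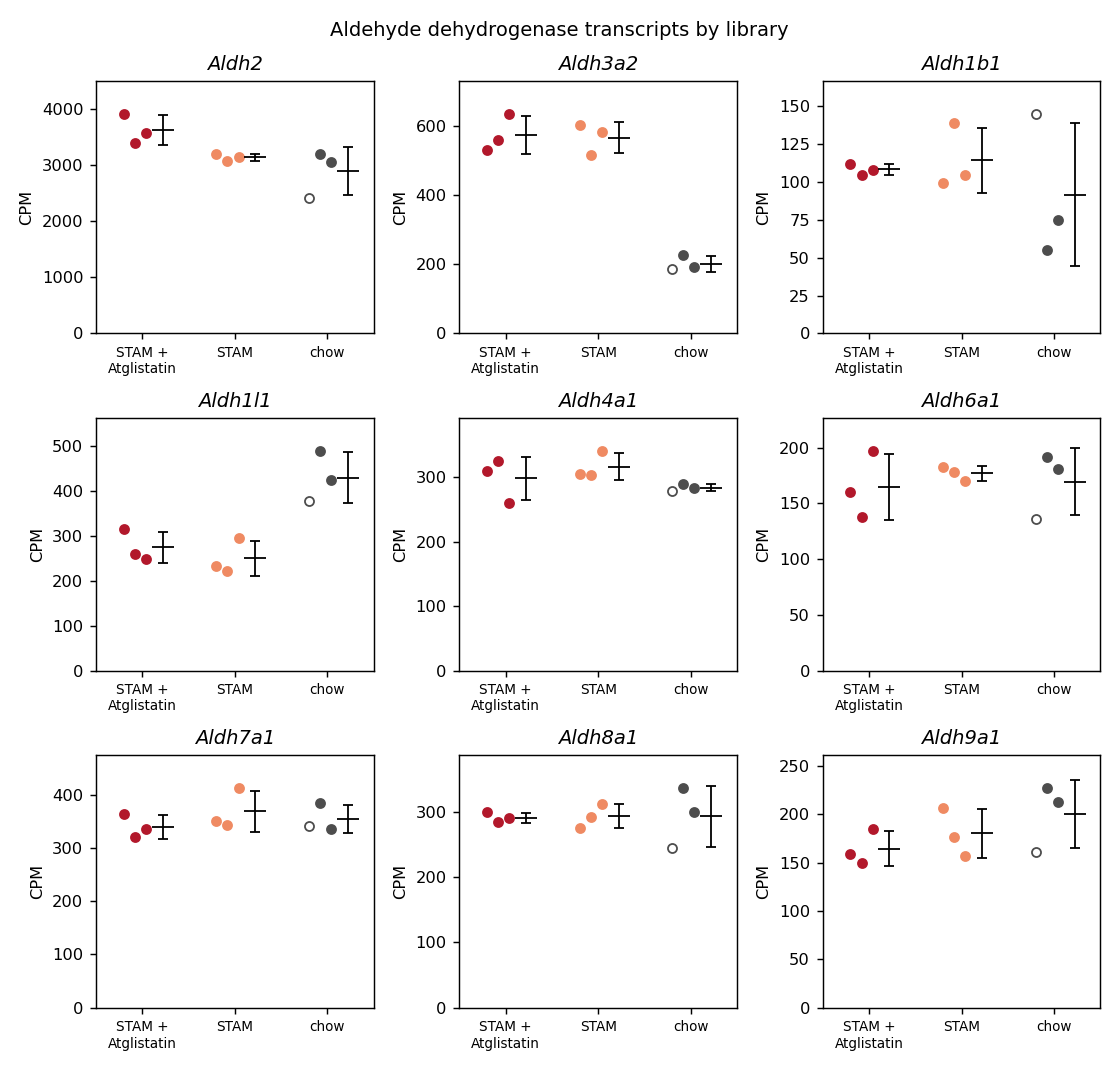
Level of each of the 9 genes in CPM (vertical axes, from 0) in the 3 libraries of STAM + Atglistatin, STAM and chow. Points are libraries, chow replicate 7 is the open point, and the bar beside them is the mean ± SD (n = 3). Aldh3a2 stands at 516 CPM or more in all 6 libraries of STAM + Atglistatin and STAM and at 228 CPM or less in chow, and Aldh1b1 in chow replicate 7 (145 CPM) lies far above the other chow libraries.

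Aldh2 (chromosome 5, 121566027 to 121593824, minus strand) carried 256158 of the counts over the 9 libraries. It was at 3194, 3067 and 3138 CPM in STAM and at 2403, 3199 and 3057 CPM in chow, with means of 3133 ± 63.8 CPM in STAM and 2886 ± 425 CPM in chow. The groups overlapped and the difference did not pass (0.12 ± 0.12, 95% interval -0.13 to 0.37; edgeR adjusted p = 0.74). The chow libraries held both the lowest and the highest of these 6 values.

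Aldh1b1 (chromosome 4, 45799022 to 45804604, plus strand) was the member that rested most on 1 library. It was at 99.5, 139 and 105 CPM in STAM, against 145 CPM in chow replicate 7, 55.1 CPM in replicate 8 and 74.9 CPM in replicate 9. With all libraries the log2 fold change was 0.32 ± 0.24 (95% interval -0.19 to 0.83; edgeR adjusted p = 0.62). Without chow replicate 7 it was 0.82 ± 0.17 and passed (edgeR adjusted p = 0.00351). Its adjusted p over the 15 alternatives ran from 0.00351 to 0.963, and the fold change was 0.06 without chow replicate 8, 0.20 without chow replicate 9 and 0.16 without STAM replicate 2. Chow replicate 7 also had the highest summed level of the 5 cholangiocyte markers, at 68.0 CPM. The other ranges of that sum were 53.3 to 59.9 CPM in STAM + Atglistatin, 48.6 to 58.4 CPM in STAM and 42.9 to 44.8 CPM in the 2 other chow libraries. For the 7 stellate cell markers it was at 622 CPM, with 429 to 467 CPM in STAM + Atglistatin, 343 to 457 CPM in STAM and 412 to 423 CPM in the other chow libraries. In chow, Sox9 was the largest part of the cholangiocyte sum (50.5 CPM at most) and Dcn of the stellate sum (465 CPM at most). No marker of the cholangiocyte and stellate lists was at 0 over all libraries, and 0 of the 5 and 0 of the 7 passed in any comparison. Among the chow libraries, replicate 7 was also highest for the Kupffer cell and macrophage (296 CPM) and the lymphocyte and neutrophil (17.2 CPM) sums. The same held for the adipocyte sum (4.22 CPM), whose markers had too few counts to be tested. It was lowest of the chow libraries for the hepatocyte sum (91434 CPM). The part of any of these in the Aldh1b1 values was not tested.

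**Figure D2:**
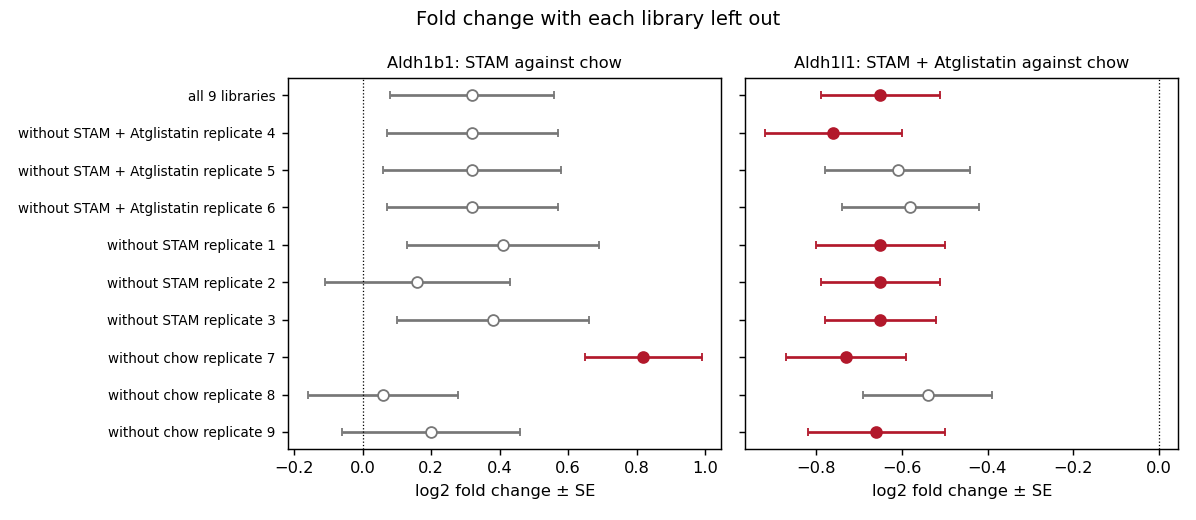
Log2 fold change ± SE (horizontal axes) of Aldh1b1 in STAM against chow and of Aldh1l1 in STAM + Atglistatin against chow, with all 9 libraries and with each library left out (vertical axis). Filled red points passed at an adjusted p under 0.05. Aldh1b1 passed only in the fit without chow replicate 7 (0.82), and Aldh1l1 did not pass without STAM + Atglistatin replicate 5 or 6 or chow replicate 8.

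None of the amino acid and carnitine enzymes passed in STAM against chow. Aldh4a1, the pyrroline carboxylate dehydrogenase that makes glutamate from proline (chromosome 4, 139622866 to 139649690, plus strand), was at 304 to 341 CPM in STAM and 279 to 290 CPM in chow. Its groups did not overlap, but the difference of 0.16 ± 0.12 did not pass (edgeR adjusted p = 0.619). Aldh6a1, the methylmalonate semialdehyde dehydrogenase of valine and thymine breakdown (chromosome 12, 84430717 to 84451004, minus strand), was at 170 to 183 CPM in STAM and 136 to 192 CPM in chow. Aldh7a1, which oxidises aminoadipic semialdehyde from lysine and also betaine aldehyde, was at 343 to 412 CPM in STAM and 336 to 384 CPM in chow. Aldh8a1, which acts on aminomuconic semialdehyde in the kynurenine route (chromosome 10, 21377291 to 21396585, plus strand), had a mean of 293 ± 18.7 CPM in STAM and 293 ± 46.4 CPM in chow. Aldh9a1, which oxidises trimethylaminobutyraldehyde on the way to carnitine (chromosome 1, 167349991 to 167368532, plus strand), was at 157 to 207 CPM in STAM and 161 to 227 CPM in chow.

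The 95% intervals of the log2 fold changes give the size that these data leave room for. They ran from -0.25 to 0.38 for Aldh6a1, from -0.19 to 0.31 for Aldh7a1, from -0.26 to 0.27 for Aldh8a1 and from -0.46 to 0.16 for Aldh9a1. A change by 1 on the log2 scale lies outside each of them. Aldh6a1 overlaps Bbof1 on the other strand, and Aldh7a1 overlaps Phax on the other strand. Bbof1 had 99 counts beside 13460 of Aldh6a1, and Phax had 2672 beside 28087 of Aldh7a1. On the same strand, Gm21969 (0 counts) covers 4907 exonic bases of Aldh4a1, and Gm45901 (15 counts) covers 105 of Aldh1l1. Whether strand was used in the counting is not stated.

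STAM + Atglistatin against STAM compares model mice fed with and without the inhibitor. None of the 9 genes passed in edgeR, 0 had an unadjusted p under 0.05, and 0 passed in DESeq2 or limma-voom, where 1.79% of all tested genes passed in edgeR, 1.04% higher and 0.742% lower. The member values ranged between -0.13 and 0.21, with a median of -0.08 over the members and 0.00 over all tested genes. Aldh3a2 was at 529, 558 and 634 CPM in STAM + Atglistatin, against 601, 516 and 581 CPM in STAM. These libraries overlapped, the log2 fold change was 0.02 ± 0.12, and its 95% interval of -0.24 to 0.28 holds no fold change above 1.21.

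Aldh1l1 was at 314, 259 and 249 CPM in STAM + Atglistatin and at 233, 221 and 294 CPM in STAM, a difference of 0.14 ± 0.14 (95% interval -0.16 to 0.44; edgeR adjusted p = 0.838). Aldh2 was at 3906, 3390 and 3564 CPM in STAM + Atglistatin, with a mean of 3620 ± 262 CPM, and every one of these libraries was above the STAM libraries. It was the 1 member whose groups did not overlap, against 17.0% of tested genes, 8.58% with higher and 8.45% with lower values, and the difference of 0.21 ± 0.12 did not pass (95% interval -0.04 to 0.46; edgeR adjusted p = 0.607). Aldh1b1 averaged 108 ± 3.37 CPM in STAM + Atglistatin and 115 ± 21.7 CPM in STAM. Log2 fold changes of the other members were -0.08 ± 0.12 for Aldh4a1, -0.10 ± 0.15 for Aldh6a1, -0.12 ± 0.12 for Aldh7a1, -0.01 ± 0.13 for Aldh8a1 and -0.13 ± 0.15 for Aldh9a1.

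**Figure D3:**
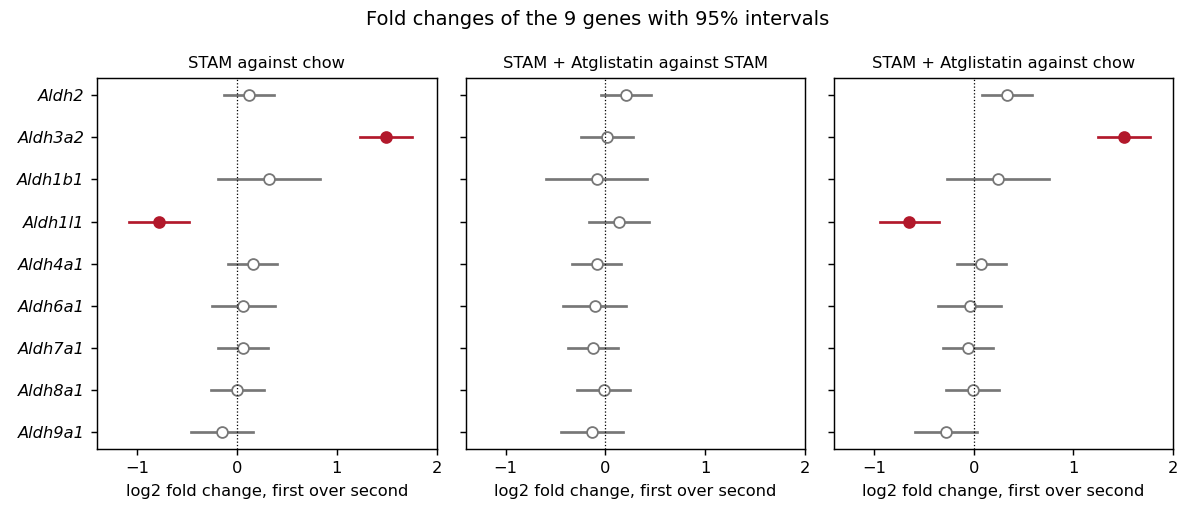
Log2 fold change (horizontal axes, first-named group over second) of the 9 genes in the 3 comparisons, with 95% intervals from edgeR's quasi-likelihood fit. Filled red points passed at an adjusted p under 0.05: Aldh3a2 (1.49 and 1.51) and Aldh1l1 (-0.78 and -0.65) in both comparisons with chow, and no member in STAM + Atglistatin against STAM.

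STAM + Atglistatin against chow shares its libraries with the other comparisons, and its values stand beside theirs as a description of the third pair of groups. Aldh3a2 rose to 574 ± 53.9 CPM in STAM + Atglistatin, against 202 ± 22.7 CPM in chow, by 1.51 ± 0.13 on the log2 scale (edgeR adjusted p = 6.37e-07). In order of level, chow was lowest, and STAM and STAM + Atglistatin did not differ beyond their spread. Aldh1l1 fell to 274 ± 34.9 CPM in STAM + Atglistatin, against 429 ± 56.2 CPM in chow, by 0.65 ± 0.14 (edgeR adjusted p = 0.0125). Its call was lost without STAM + Atglistatin replicate 5 (edgeR adjusted p = 0.0756), STAM + Atglistatin replicate 6 (edgeR adjusted p = 0.0578) or chow replicate 8 (edgeR adjusted p = 0.0776), and the lowest adjusted p of the 15 alternatives was 0.000108. These were 2 of the 9 members, and 4.08% of all tested genes passed, 2.10% higher and 1.97% lower.

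Aldh2 averaged 3620 ± 262 CPM in STAM + Atglistatin and 2886 ± 425 CPM in chow, with no overlap between libraries. With Aldh3a2 and Aldh1l1 it made 3 members without overlap, 2 higher and 1 lower, against 18.6% of tested genes, 9.60% higher and 9.03% lower. The difference of 0.33 ± 0.12 (95% interval 0.08 to 0.58) did not pass (edgeR adjusted p = 0.171; 0.016 to 0.424 over all alternatives), and it passed with library totals in place of TMM (0.42, edgeR adjusted p = 0.016). Aldh1b1 differed by 0.24 ± 0.24, and by 0.74 ± 0.17 without chow replicate 7 (edgeR adjusted p = 0.00837). Aldh9a1 averaged 165 ± 18 CPM in STAM + Atglistatin and 200 ± 34.8 CPM in chow (-0.28 ± 0.15; edgeR adjusted p = 0.391). The 4 remaining members lay between -0.06 and 0.07.

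In the authors' deposited table, which puts chow over STAM, Aldh3a2 had a log2 fold change of -1.43 and Aldh1l1 one of 0.73 for chow over STAM. The authors' deposited table gave 2 of the 9 members an adjusted p under 0.05 in each comparison with chow and 0 of 9 in STAM + Atglistatin against STAM. The share of all genes that passed there was not worked out, so these counts have no background beside them.

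The genes whose values over the 9 libraries lay nearest to those of the 2 changed members were sought among 7793 genes, by the root-mean-square difference of log2 CPM after subtracting each gene's own mean. For Aldh3a2 these were Vnn1, a pantetheinase of coenzyme A turnover, at a distance of 0.19, and the transferrin receptor gene Tfrc at 0.21, where Aldh3a2's own spread about its mean was 0.72. Vnn1 was at 115 ± 5.25 CPM in STAM + Atglistatin, 127 ± 5.25 CPM in STAM and 38.5 ± 6.77 CPM in chow. Tfrc was at 26.1 ± 1.65 CPM in STAM + Atglistatin, 30.8 ± 4.94 CPM in STAM and 10.8 ± 1.94 CPM in chow. For Aldh1l1 they were the tight junction gene Tjp3 at 0.11 and Scap, which escorts the SREBP proteins of sterol control, at 0.12, where Aldh1l1's own spread was 0.38. Scap was at 92.5 ± 1.59 CPM in STAM + Atglistatin, 88.9 ± 11.7 CPM in STAM and 152 ± 15.9 CPM in chow. These genes were picked for the likeness, which is therefore no test.

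**Figure D4:**
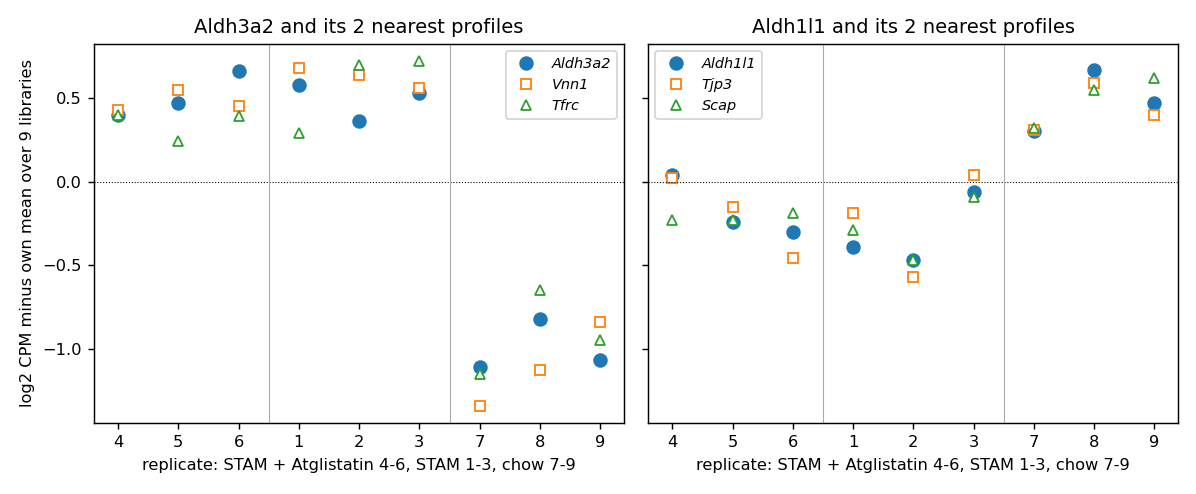
Log2 CPM minus each gene's own mean over the 9 libraries (vertical axis) for Aldh3a2 with Vnn1 and Tfrc, and for Aldh1l1 with Tjp3 and Scap, by replicate (horizontal axis; STAM + Atglistatin, STAM, chow). Each point is 1 library. The 3 genes of the left panel lie below their means in the chow libraries, and those of the right panel lie higher than theirs.

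Of 12 other aldehyde dehydrogenase genes, 6 had enough counts to be tested. None passed in STAM against chow or in STAM + Atglistatin against STAM, where 3.94% and 1.79% of all tested genes passed. In those comparisons DESeq2 and limma-voom also called 0 of the 12, and Aldh1a1 alone had an unadjusted p under 0.05, in STAM against chow. Aldh1a1, a cytosolic retinaldehyde dehydrogenase, was at 1399 ± 191 CPM in STAM + Atglistatin, 1173 ± 235 CPM in STAM and 925 ± 146 CPM in chow. It rose in STAM + Atglistatin against chow (0.60 ± 0.15, edgeR adjusted p = 0.0348), a call lost when STAM + Atglistatin replicate 4, 5 or 6, STAM replicate 1, or chow replicate 7 or 9 was left out (edgeR adjusted p = 0.0591 to 0.146; lowest of all alternatives 0.000196). Its close copy Aldh1a7 was at 233 ± 5.38 CPM in STAM + Atglistatin, 230 ± 11.7 CPM in STAM and 262 ± 19.5 CPM in chow, and how reads shared by the copies were counted is not stated. Aldh5a1, the succinate semialdehyde dehydrogenase of GABA breakdown, stood at 55.2 ± 6.84, 53.7 ± 6.25 and 57.3 ± 8.57 CPM in STAM + Atglistatin, STAM and chow, and Aldh16a1 at 45.6 ± 3.03, 45.8 ± 3.46 and 47.5 ± 1.83 CPM. Aldh3b1 had 5 to 61 counts and Aldh18a1, of proline synthesis, 2 to 32 counts in a library. Aldh1a2, Aldh1a3, Aldh1l2 and Aldh3b3 had at most 14 counts in any library, and Aldh3a1 and Aldh3b2 had none.

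Of 25 PPARa targets, a list without the 9 members, 12 rose and none fell in STAM against chow, with a median of 0.45, where 1.95% of all tested genes rose. In STAM + Atglistatin against STAM 1 rose and none fell, with a median of -0.05, where 1.04% of all tested genes rose. Vnn1 rose by 1.73 ± 0.14, Cyp4a10 by 2.20 ± 0.22 and Cyp4a14 by 3.03 ± 0.35 in STAM against chow. Acot3, an acyl-CoA thioesterase, was at 83.0 ± 10.2 CPM in STAM + Atglistatin and 25.8 ± 13.7 CPM in STAM (1.69 ± 0.28, edgeR adjusted p = 0.00206).

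Omega-hydroxylases of the Cyp4 family start the route that passes fatty alcohols and fatty aldehydes on to carboxylic acids. Of 11 tested genes of this route and of fatty aldehyde release, 3 rose and 1 fell in STAM against chow, with a median of 0.20. Of all tested genes, 1.95% rose and 1.99% fell, and Cyp4a10 and Cyp4a14 are also on the list of PPARa targets. Those that rose were Cyp4a10, Cyp4a14 and Cyp4a31 (1.88 ± 0.27), and Cyp4f14 fell by 0.95 ± 0.14, to 108 ± 9.30 CPM in STAM against 208 ± 28.9 CPM in chow. In STAM + Atglistatin against STAM 0 rose and 3 fell, with a median of 0.04, where 0.742% of all tested genes fell. Cyp4a12a was at 119 ± 25.9 CPM in STAM + Atglistatin and 486 ± 14.6 CPM in STAM, Cyp4a12b fell by 2.79 ± 0.18 and Cyp4v3 by 0.76 ± 0.13. The Cyp4a genes are close relatives, and how reads that fit several of them were counted is not stated.

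Of 10 genes that supply or remove aldehydes, none passed in STAM against chow in edgeR, where 1, Adh4, had an unadjusted p under 0.05 and DESeq2 and limma-voom each called 1. In STAM + Atglistatin against STAM 2 rose and 1 fell, with a median of 0.14. The shares over all tested genes were 1.04% higher and 0.742% lower. Gsta4, a glutathione transferase that takes up hydroxynonenal, was at 158 ± 15.5 CPM in STAM + Atglistatin and 76.6 ± 3.04 CPM in STAM (1.04 ± 0.17, edgeR adjusted p = 0.00154). Adh1, the main liver alcohol dehydrogenase, rose to 6148 ± 486 CPM in STAM + Atglistatin, against 4318 ± 625 CPM in STAM (0.51 ± 0.12, edgeR adjusted p = 0.0316). The Adh1 call was lost without STAM + Atglistatin replicate 4 or 5 or STAM replicate 1 or 2 (edgeR adjusted p = 0.138 to 0.216; lowest of all alternatives 0.00169). Aox3, an aldehyde oxidase, fell by 0.68 ± 0.15 (edgeR adjusted p = 0.0267), and its call was lost without STAM + Atglistatin replicate 4 or 5 or any STAM replicate (edgeR adjusted p = 0.0579 to 0.158; lowest of all alternatives 5.03e-05). Its relative Aox1, of the same list, went the other way without passing (0.48 ± 0.14, edgeR adjusted p = 0.123). Without chow replicate 7, 1 gene of the list fell in STAM against chow, Adh4.

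For the lists that follow, edgeR's shares over all tested genes in STAM against chow were 1.95% higher and 1.99% lower. In STAM + Atglistatin against STAM they were 1.04% higher and 0.742% lower. Of 7 genes beside Aldh4a1 in proline and hydroxyproline breakdown, Oat, ornithine aminotransferase, rose in STAM against chow to 566 ± 59.2 CPM in STAM, against 276 ± 53.1 CPM in chow (1.04 ± 0.17). It fell in STAM + Atglistatin against STAM, to 301 ± 70.5 CPM in STAM + Atglistatin (-0.91 ± 0.16, edgeR adjusted p = 0.00421), and edgeR called none of the other 6 in either comparison. In STAM against chow DESeq2 and limma-voom each called 2 of the 7, and 4 had an unadjusted p under 0.05, while in STAM + Atglistatin against STAM both called 1, and Oat was the 1 gene with an unadjusted p under 0.05. Of 12 genes beside Aldh6a1, Bckdhb, a subunit of the branched-chain ketoacid dehydrogenase, rose in STAM against chow (0.58 ± 0.14, edgeR adjusted p = 0.0268). That call was lost without chow replicate 9 or STAM replicate 1 or 2 (edgeR adjusted p = 0.12 to 0.142; lowest of all alternatives 0.00585). Beside Aldh7a1, Aadat of lysine breakdown, 1 of 7, fell in STAM + Atglistatin against STAM by 0.71 ± 0.14, a call lost without STAM replicate 2 (edgeR adjusted p = 0.0549; lowest of all alternatives 0.000184). Bhmt, the betaine methyltransferase, 1 of 6 choline and betaine genes, was at 954 ± 119 CPM in STAM + Atglistatin and 1802 ± 119 CPM in STAM (-0.92 ± 0.13, edgeR adjusted p = 0.000309). Without STAM + Atglistatin replicate 6, chow replicate 7 or STAM replicate 3, 1 gene of that list, Gnmt, fell in STAM against chow, and without chow replicate 9 Bhmt rose. With all libraries edgeR called 0 of these 6 in STAM against chow, DESeq2 3 and limma-voom 2, and 4 had an unadjusted p under 0.05.

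Of 9 kynurenine genes beside Aldh8a1, Haao fell in STAM against chow (-0.60 ± 0.14, edgeR adjusted p = 0.014), where 1.99% of all tested genes fell. It was at 306 ± 37.2 CPM in STAM and 466 ± 65.2 CPM in chow. This call was lost without STAM replicate 1 or 2 or chow replicate 8 or 9 (edgeR adjusted p = 0.056 to 0.108; lowest of all alternatives 0.000449). Over all tested genes, 3.94% passed in STAM against chow and 1.79% in STAM + Atglistatin against STAM, with medians of 0.00. The 15 folate genes beside Aldh1l1 had no call in STAM against chow, with a median of -0.01. In STAM + Atglistatin against STAM they had none either, with a median of -0.03. DESeq2 and limma-voom called 0 as well, and 2 genes (STAM against chow) and 1 gene (STAM + Atglistatin against STAM) had an unadjusted p under 0.05. Without chow replicate 7, Mthfd1l of that list rose in STAM against chow. Of 5 carnitine genes found beside Aldh9a1, edgeR called 0 in either comparison. Their medians were 0.38 in STAM against chow and 0.05 in STAM + Atglistatin against STAM. Crat and Slc25a20 of these 5 are also on the list of PPARa targets. In STAM against chow DESeq2 and limma-voom each called 2 and 3 had an unadjusted p under 0.05, and in STAM + Atglistatin against STAM DESeq2 called 1, limma-voom 2 and 2 had an unadjusted p under 0.05. In STAM + Atglistatin against STAM, leaving out chow replicate 7 added 1 lower call in each of the valine list (Abat), the kynurenine list (Acmsd) and the carnitine list (Crot).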

How the data were processed

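RNA of 9 liver libraries was sequenced with the QuantSeq 3' kit and, per the submitters' processing notes, aligned with STAR to GRCm38. Sources used here do not name the counting tool, annotation, strand use or handling of reads with several matches. The authors deposited raw read counts per gene and library, their log2 fold changes with SE (shrinkage and tool not stated) and their p-values. Groups came from the sample titles. The 7 entries with no gene identifier (0.26 to 0.529% of counts) were left out. Of 55401 gene identifiers, 55141 were in the GENCODE M21 annotation of GRCm38, which gave positions and overlaps.

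Testing used edgeR 4.0.16 (R 4.3.3) with TMM, filterByExpr, 1 fit to all 9 libraries and quasi-likelihood tests of 3 comparisons, two-sided, with Benjamini-Hochberg adjustment over 12660 genes. The SE is the fold change over the square root of F, and intervals are 95%. The common biological coefficient of variation was 0.236. The fit was also run on counts simulated from its own estimates, which does not test how well those estimates hold. Log2 CPM for the nearest profiles used a prior count of 2 and genes of mean log2 CPM of at least 3. Members, lists and tests were chosen with earlier results of these data known. Named list genes were up to 3 per direction with the smallest p in STAM against chow and in STAM + Atglistatin against STAM, and genes called only with a library left out were named after their values were seen. Alternatives were DESeq2 size factors, library totals, DESeq2 1.42.0, voom with sample weights (limma 3.58.1), keeping genes of low count, only the 2 groups compared, and each library left out. Applying them to the pathway lists was added after the data were seen.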

Additional observations from a re-analysis of the deposited data

How the results depend on the processing

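No paired analysis was possible because the groups share no replicate numbers. Of 405 member values under the alternatives, 376 kept their direction and their side of the threshold, 3 lost and 3 gained a call, and 23 changed sign, none of them a call. The count of members passing in STAM + Atglistatin against chow was 1 to 3 with a library left out (2 with all), and that in STAM + Atglistatin against STAM was 0 in every alternative run. Counts over all genes with a library left out were 291 to 724 in STAM against chow (499 with all), 131 to 332 in STAM + Atglistatin against STAM (226) and 309 to 757 in STAM + Atglistatin against chow (516), and with no low-count filter the second was 392. Library totals in place of TMM moved the split to 347 higher and 205 lower in STAM against chow (247 and 252 with TMM) and to 359 and 184 in STAM + Atglistatin against chow (266 and 250). The sign of Aldh8a1 turned with limma-voom in STAM against chow (-0.05) and in STAM + Atglistatin against STAM (0.00), and with library totals the values in STAM + Atglistatin against chow turned for Aldh6a1 (0.06), Aldh7a1 (0.02) and Aldh8a1 (0.08). The causes were not tested.

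With a library left out, ranges that crossed 0 in STAM against chow were -0.07 to 0.16 for Aldh6a1, -0.03 to 0.12 for Aldh7a1 and -0.12 to 0.11 for Aldh8a1. In STAM + Atglistatin against STAM they were -0.06 to 0.07 for Aldh3a2, -0.18 to 0.08 for Aldh1b1, -0.15 to 0.00 for Aldh4a1, -0.25 to 0.01 for Aldh6a1 and -0.06 to 0.03 for Aldh8a1. In STAM + Atglistatin against chow they were -0.03 to 0.74 for Aldh1b1, -0.19 to 0.07 for Aldh6a1 and -0.13 to 0.10 for Aldh8a1. Counts per library ran from 457 to 1406 for Aldh1b1 and from 1226 to 38927 for the other members. With 3 libraries a group, the intervals given above show the sizes that these data leave room for. They are per gene and not adjusted for the number of genes, so a call needed more than an interval without 0.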
